A study of Arabidopsis thaliana with 12 samples.

Results

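The genes described here are the 6 R2R3-MYB transcription factors that regulate glucosinolate (GS) synthesis in Arabidopsis thaliana: MYB28 (AT5G61420), MYB29 (AT5G07690) and MYB76 (AT5G07700) for aliphatic GS, and MYB34 (AT5G60890), MYB51 (AT1G18570) and MYB122 (AT1G74080) for indole GS. They were taken by gene identifier, 6 of the 27371 genes in the expression tables, and no measured value entered the choice. The libraries were mRNA sequencing libraries of whole seedlings, 14 days old, grown at 23 °C in long days on sugar-free MS plates. Seedlings of the Col-0 wild type (WT) and of linc1-1, the T-DNA line SALK_025347 with an insertion in LINC1, were mock treated or sprayed with Pst hrcC- at an OD600 of 0.002 and taken at 24 h. LINC1 encodes a nuclear lamina-like protein, and Pst hrcC- is a Pseudomonas syringae strain with a defective type III secretion apparatus, used to elicit pattern-triggered immunity. Each of the 4 groups (WT mock, WT Pst hrcC-, linc1-1 mock and linc1-1 Pst hrcC-) had 3 libraries, 12 in all, and a single mutant allele was sequenced, so a change that belongs to the line cannot be told apart from one that belongs to LINC1.

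GS are sulfur-rich defence compounds of the Brassicaceae that are cleaved by myrosinases when tissue is damaged. Aliphatic GS are built from chain-elongated methionine and indole GS from tryptophan, and each branch has its own cytochrome P450 enzymes and its own MYB regulators. The MYB proteins act together with the bHLH factors MYC2, MYC3 and MYC4, through which jasmonate signalling reaches the pathway. MYB28 and MYB29 are the main activators of the aliphatic branch and MYB76 has an accessory role. In the indole branch, MYB34 and MYB51 are the main activators and MYB122 has a minor one.

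The 6 genes are related in sequence, which bears on how separately they can be measured. Their coding sequences were 66.8% to 79.2% identical over aligned bases, with MYB29 and MYB76 the closest pair at 79.2%, MYB28 and MYB29 at 78.2% and MYB51 and MYB122 at 77.2%. The longest run of identical coding bases between any pair was 32, shared by MYB28 and MYB76. That stretch is printed below for all 6 genes, 5′ to 3′ on the coding strand, with capitals at bases that differ from MYB28 (RefSeq annotation of TAIR10.1).
MYB28, chr5:24690468-24690499, minus strand: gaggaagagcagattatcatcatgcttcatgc
MYB76, chr5:2450668-2450699, plus strand: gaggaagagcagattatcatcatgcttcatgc
MYB29, chr5:2447402-2447433, plus strand: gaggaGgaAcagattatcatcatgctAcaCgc
MYB34, chr5:24495337-24495368, plus strand: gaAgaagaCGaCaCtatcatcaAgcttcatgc
MYB51, chr1:6390098-6390129, plus strand: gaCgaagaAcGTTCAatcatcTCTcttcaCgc
MYB122, chr1:27856305-27856336, plus strand: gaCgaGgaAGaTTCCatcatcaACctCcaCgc
MYB76 matched MYB28 at every base, MYB29 differed at 4, MYB34 at 6, MYB51 at 11 and MYB122 at 12. A coding read longer than this run therefore differs by at least 1 base between any pair of the 6 genes. MYB29 and MYB76 lie next to each other on the plus strand of chromosome 5, and no annotated gene overlaps any of the 6.

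LINC1 was low in both linc1-1 groups, at 2.09 to 3.76 FPKM (fragments mapped to a gene, divided by its transcript length and by all mapped fragments) against 17.2 to 28.3 FPKM in WT. The depth of the libraries is unknown, because the tables give FPKM only. The values of WT and linc1-1 came in separate tables that the sources do not describe as scaled together. Comparisons between genotypes therefore carry that uncertainty, and were repeated after rescaling. Among the WT libraries, the replicate 1 pair stood apart: each of them correlated with the other WT libraries at r = 0.813 to 0.857 over all tested genes on the log2 scale, against 0.911 to 0.938 among WT replicates 2 and 3. In these whole-seedling samples, fewer cells expressing a gene and less RNA of it per cell cannot be told apart. The p-values of the fits across genes rest on a single spread per gene. That spread is taken within all groups together and drawn towards that of genes of similar level. The WT replicate 1 libraries therefore also enter the spread used to judge linc1-1. The study describes the 3 libraries of a group as independent repeats.

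MYB28 was higher in linc1-1 than in WT, with or without bacteria, and was the only one of the 4 genes above the minimum level whose difference passed the test across all genes. MYB76, just under that minimum, rose after Pst hrcC- in linc1-1 in the fit that kept low genes, which called 77 of 24967 genes there. MYB51 stood lower in linc1-1, most of all after Pst hrcC-, but missed the threshold. MYB28, MYB29, MYB76 and MYB34 were higher after Pst hrcC- than after mock treatment in linc1-1, with groups that did not overlap, as was the case for 7.45% of all tested genes. In WT the groups overlapped for all 6 genes, where 2.9% of all tested genes were higher without overlap. For MYB28, MYB29, MYB76 and MYB34 that overlap rested on the WT replicate 1 libraries. In WT replicates 2 and 3 each of these genes was higher after Pst hrcC- without overlap, and the share of all genes there was not counted. The responses of the genotypes were not shown to differ, since the test of that difference called none of the 6. MYB122 was close to the bottom of the measured range in every library.

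**Figure D1:**
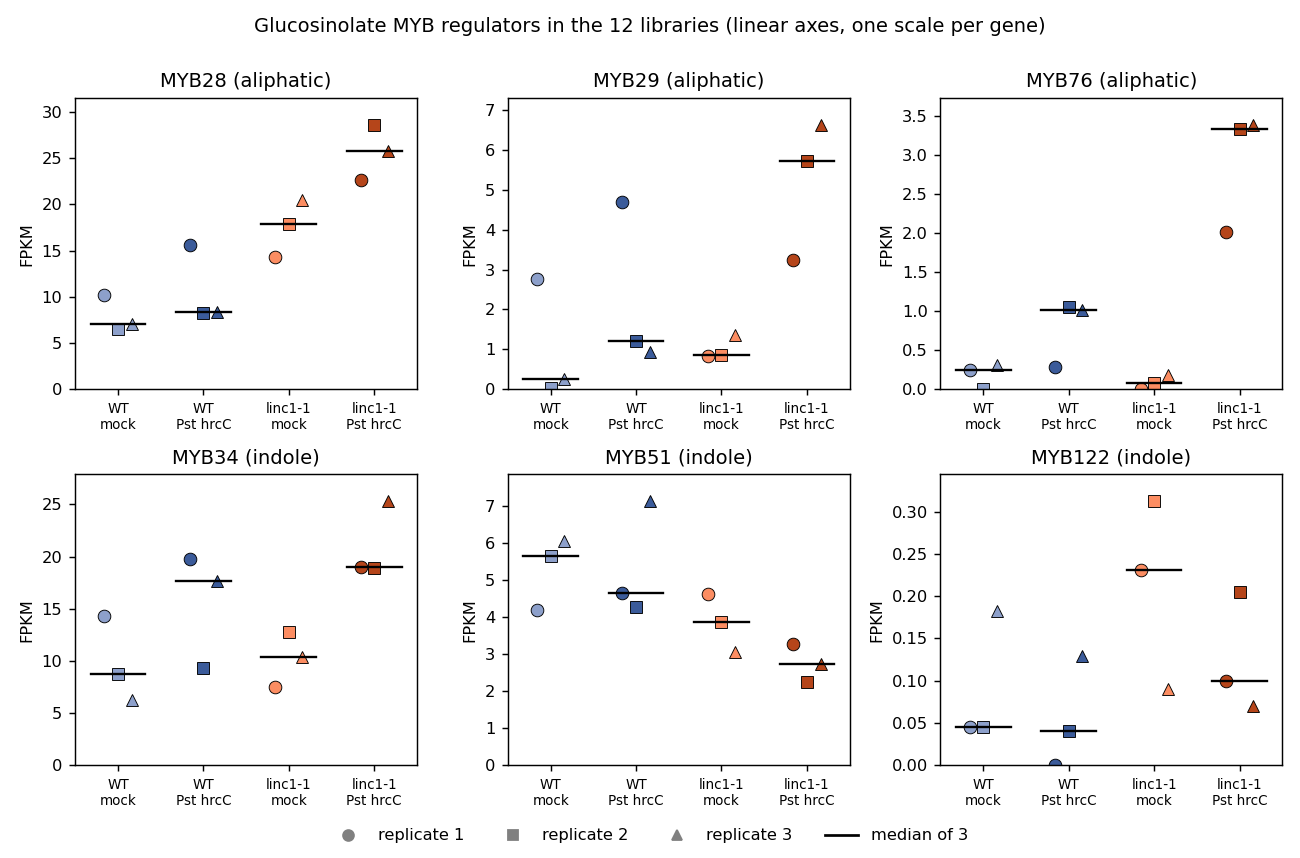
Level of each regulator (vertical axis, FPKM, linear and with a separate scale for each gene) in the 12 libraries, by group on the horizontal axis. Circles, squares and triangles are replicates 1, 2 and 3, and bars are the medians of 3. MYB28 in linc1-1 mock (14.3 to 20.5 FPKM) lies above all WT mock libraries, MYB51 is lowest in linc1-1 Pst hrcC-, and the WT replicate 1 circles are the highest of their group for MYB28, MYB29 and MYB34.

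MYB28, a main activator of aliphatic GS genes, had in WT mock seedlings 10.1, 6.5 and 7.04 FPKM in replicates 1, 2 and 3. After Pst hrcC-, WT had 15.6, 8.21 and 8.34 FPKM. The linc1-1 mock libraries had 14.3, 17.8 and 20.5 FPKM, and the linc1-1 Pst hrcC- libraries had 22.6, 28.6 and 25.7 FPKM. All linc1-1 libraries were above all WT libraries of the same treatment, and the WT replicate 1 library was the highest of its group in both treatments. The group means ran from 7.90 ± 1.97 FPKM (SD, n = 3) in WT mock through 10.7 ± 4.24 in WT Pst hrcC- and 17.5 ± 3.11 in linc1-1 mock to 25.6 ± 3.00 in linc1-1 Pst hrcC-. In this order only the last pair of neighbours, the 2 linc1-1 groups, did not overlap.

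The tests were fitted with limma on log2(FPKM + 1) across 16677 genes whose mean over the 12 libraries reached 1 FPKM. A gene was called where the Benjamini-Hochberg adjusted p was under 0.05 and the fold above 1.5. On that scale, MYB28 was higher in linc1-1 than in WT by 1.15 (SE 0.18, 95% interval 0.75 to 1.55, limma adjusted p = 0.0127) in the mean of both treatments. It was the 1 member called of 4 tested there, against 2.09% of all genes (0.845% called higher). Within single treatments the difference was 1.07 in mock (SE 0.26, limma adjusted p = 0.287) and 1.24 after Pst hrcC- (SE 0.26, limma adjusted p = 0.0701). In neither of these did any of the 4 tested members pass, and 0.036% of all genes were called in mock and 0.432% after Pst hrcC-. An exact permutation test of genotype within treatments, two-sided over 400 arrangements, gave MYB28 an unadjusted p of 0.005, the smallest this design allows. Both tests took the WT replicate 1 libraries of mock and Pst hrcC- as independent, although these stood apart together.

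The MYB28 difference was present whichever WT replicates it was measured against, at different sizes. The linc1-1 mean exceeded WT replicate 1 by 0.72 in mock and 0.67 after Pst hrcC- on the log2 scale, and it exceeded the mean of WT replicates 2 and 3 by 1.24 and 1.52. Without both WT replicate 1 libraries, an alternative added after the data were seen, MYB28 was called in each treatment (limma adjusted p = 0.00486 in mock and 0.00123 after Pst hrcC-). In that fit 1642 genes in mock and 2950 genes after Pst hrcC- were also called, where the fit of all libraries called 6 and 72. Rescaling all libraries to ACT2 and UBQ10 moved the median of all genes after Pst hrcC- from 0.14 to 0.40 and the MYB28 difference from 1.24 to 1.54 on the log2 scale. This rescaling divides each library by 1 factor, which shifts all its genes nearly alike. It therefore cannot test the difference of MYB28 from the median gene, which stays similar by construction.

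The response of MYB28 to Pst hrcC- was smaller than its genotype difference: 0.36 in WT (SE 0.26, limma adjusted p = 0.993) and 0.53 in linc1-1 (SE 0.26, limma adjusted p = 1) on the log2 scale. The WT value moved with replicate 1, at 0.54 without that library of WT mock and 0.08 without that of WT Pst hrcC-. Without both of these libraries it was 0.26. The difference between these responses was 0.17, with a 95% interval from -0.63 to 0.97. Over both genotypes the exact permutation p for treatment was 0.03 (unadjusted, 400 arrangements).

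The 250 bases upstream of the annotated start of MYB28, the gene that was called, are printed for reference (RefSeq, TAIR10.1, chr5:24691188-24691437, minus strand).
MYB28 upstream: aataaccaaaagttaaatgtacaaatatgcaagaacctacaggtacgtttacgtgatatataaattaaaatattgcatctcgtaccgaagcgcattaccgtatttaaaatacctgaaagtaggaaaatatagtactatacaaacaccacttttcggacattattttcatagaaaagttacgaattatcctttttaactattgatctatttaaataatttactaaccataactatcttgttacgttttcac
It was searched on both strands for CACGTG, the G-box that MYC factors bind, for TTGAC, the core of the W-box that WRKY factors bind, and for TGACG, the core bound by TGA factors. TTGAC and TGACG can overlap by 4 bases. None of the 3 motifs was in this window, and 6.5%, 44.9% and 18.6% of 27443 windows of the same length upstream of annotated genes held them.

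MYB29, the other main aliphatic activator, was lower and more variable. WT mock had 2.76, 0.0473 and 0.251 FPKM, and WT Pst hrcC- had 4.70, 1.2 and 0.937 FPKM. In linc1-1 it had 0.829, 0.865 and 1.35 FPKM after mock treatment, and 3.24, 5.72 and 6.62 FPKM after Pst hrcC-. The WT replicate 1 libraries were far above the other WT libraries in both treatments, and the linc1-1 groups did not overlap each other. Group means were 1.02 ± 1.51 in WT mock, 2.28 ± 2.1 in WT Pst hrcC-, 1.01 ± 0.29 in linc1-1 mock and 5.19 ± 1.75 FPKM in linc1-1 Pst hrcC- (SD, n = 3). The order from high to low was linc1-1 Pst hrcC-, WT Pst hrcC- and then both mock groups, and each neighbouring pair overlapped.

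MYB29 was higher after Pst hrcC- by 1.59 in linc1-1 (SE 0.50, limma adjusted p = 0.484) and by 0.77 in WT (SE 0.50, limma adjusted p = 0.993) on the log2 scale, and was not called. The WT value was 1.34 without replicate 1 of WT mock and 0.28 without replicate 1 of WT Pst hrcC-. Without both of these libraries it was 0.85. Its exact permutation p for treatment over both genotypes was 0.025 (unadjusted). Between genotypes it differed by 0.23 in mock and 1.05 after Pst hrcC- (limma adjusted p = 0.944 and 0.334). These values rest on the WT replicate 1 libraries. Against WT replicate 1 the linc1-1 mean of MYB29 was 0.91 lower in mock (-0.91) and 0.08 higher after Pst hrcC-, whereas against WT replicates 2 and 3 it was 0.81 and 1.54 higher. Without both WT replicate 1 libraries MYB29 was called in linc1-1 after Pst hrcC- against WT (1.54, limma adjusted p = 0.00502) and in the response of linc1-1 (1.59, limma adjusted p = 0.00966). That fit called 2950 of 16677 genes in the former comparison and 218 in the latter.

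MYB76, the accessory aliphatic regulator, was detected mainly in linc1-1 after Pst hrcC-. It was listed at 0.248, 0 and 0.310 FPKM in WT mock and at 0.286, 1.05 and 1.02 FPKM in WT Pst hrcC-. In linc1-1 it was listed at 0, 0.0820 and 0.183 FPKM after mock treatment and at 2.02, 3.34 and 3.39 FPKM after Pst hrcC-. The linc1-1 Pst hrcC- libraries were above the other 9, both mock groups overlapped, and the WT groups overlapped. A listed 0 is not read as absence, because LHCB1.3, an abundant chlorophyll-binding protein gene, was also listed at 0 in 2 linc1-1 libraries.

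With a mean of 0.994 FPKM, MYB76 fell just under the minimum, so its tests come from the fit of the 24967 genes above 0 in any library. There it rose in linc1-1 after Pst hrcC- by 1.83 on the log2 scale (SE 0.21, 95% interval 1.36 to 2.30, limma adjusted p = 0.00687), beside 77 of 24967 genes called. In WT the response was 0.57 (SE 0.21, limma adjusted p = 0.816). The response was larger in linc1-1 than in WT by 1.26 (SE 0.29, 95% interval 0.60 to 1.92), with an unadjusted limma p of 0.00169 that did not pass the correction over all genes (adjusted p = 1), and it ranged from 1.04 to 1.44 when single libraries were left out. The genotypes differed by -0.12 in mock (limma adjusted p = 0.966) and by 1.14 after Pst hrcC- (limma adjusted p = 0.0633). The exact permutation p of MYB76 was 0.01 for treatment and 0.095 for genotype (unadjusted). Because a pseudocount of 1 FPKM is large beside these levels, the size of the log2 values depends on that choice: with 0.1 FPKM the response in linc1-1 was 4.09.

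The 250 bases upstream of MYB76, the member with the largest response, are printed with capitals at matches of TTGAC or its reverse complement GTCAA (RefSeq, TAIR10.1, chr5:2449777-2450026, plus strand). The 250 bases upstream of its neighbour MYB29 follow (chr5:2446419-2446668, plus strand).
MYB76 upstream: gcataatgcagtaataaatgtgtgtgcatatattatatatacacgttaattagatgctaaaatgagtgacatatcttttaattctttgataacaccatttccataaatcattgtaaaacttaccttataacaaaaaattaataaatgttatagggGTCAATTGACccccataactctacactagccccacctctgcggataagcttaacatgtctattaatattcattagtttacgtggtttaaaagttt
MYB29 upstream: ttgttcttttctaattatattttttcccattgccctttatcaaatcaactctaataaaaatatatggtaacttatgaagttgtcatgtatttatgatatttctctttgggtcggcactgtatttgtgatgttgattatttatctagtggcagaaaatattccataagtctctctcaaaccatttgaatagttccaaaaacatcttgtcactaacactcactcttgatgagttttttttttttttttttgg
The MYB76 window held TTGAC at 2 adjoining places that form the palindrome GTCAATTGAC, with starts 95 and 90 bases before the gene start, and the MYB29 window held none of the 3 motifs. These are matches of letters, with TTGAC in 44.9% of all windows, and no binding was measured here.

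MYB34, which activates indole GS genes and tryptophan synthesis genes, was the most abundant indole regulator. WT mock libraries had 14.3, 8.75 and 6.30 FPKM, and WT Pst hrcC- libraries had 19.8, 9.32 and 17.7 FPKM. In linc1-1 the mock libraries had 7.52, 12.8 and 10.3 FPKM, and the Pst hrcC- libraries had 19.0, 18.9 and 25.4 FPKM. The WT groups overlapped, the linc1-1 groups did not, and the genotypes overlapped in both treatments. Group means were 9.79 ± 4.11 in WT mock, 10.2 ± 2.63 in linc1-1 mock, 15.6 ± 5.54 in WT Pst hrcC- and 21.1 ± 3.72 FPKM in linc1-1 Pst hrcC- (SD, n = 3), and each neighbouring pair in this order overlapped.

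MYB34 was higher after Pst hrcC- by 0.63 in WT (SE 0.33, limma adjusted p = 0.993) and 0.99 in linc1-1 (SE 0.33, limma adjusted p = 0.556) on the log2 scale. Leaving out single WT libraries moved the WT value from 0.38 (without WT mock replicate 3) to 0.94 (without WT Pst hrcC- replicate 2). Its exact permutation p was 0.02 for treatment and 0.285 for genotype (unadjusted). The genotype difference over both treatments was 0.28, with a 95% interval from -0.23 to 0.79. In mock the difference was 0.10, and it was -0.48 against WT replicate 1 and 0.38 against WT replicates 2 and 3.

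MYB51, the other main indole regulator, had its lowest values in linc1-1. WT mock libraries had 4.18, 5.63 and 6.05 FPKM, and WT Pst hrcC- libraries had 4.66, 4.26 and 7.14 FPKM. The linc1-1 libraries had 4.62, 3.86 and 3.06 FPKM after mock treatment and 3.28, 2.26 and 2.74 FPKM after Pst hrcC-. All linc1-1 Pst hrcC- libraries were below all WT libraries, and the mock groups overlapped. Group means were 5.29 ± 0.98 in WT mock, 5.35 ± 1.56 in WT Pst hrcC-, 3.85 ± 0.78 in linc1-1 mock and 2.76 ± 0.51 FPKM in linc1-1 Pst hrcC- (SD, n = 3), and neighbours in the order of means overlapped.

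On the log2 scale MYB51 was at -0.74 in linc1-1 against WT after Pst hrcC- (SE 0.21, 95% interval -1.2 to -0.28, limma adjusted p = 0.151) and at -0.38 in mock (SE 0.21, limma adjusted p = 0.715). Over both treatments the value was -0.56 (SE 0.15, limma adjusted p = 0.0738), and the exact permutation p for genotype was 0.01 (unadjusted). Without both WT replicate 1 libraries, where 2950 of 16677 genes were called, MYB51 was called lower after Pst hrcC- (-0.81, limma adjusted p = 0.0314). Its response to bacteria was 0.00 in WT and -0.36 in linc1-1 (SE 0.21 in both), and neither was called.

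MYB51 was the other member whose upstream window held a motif (RefSeq, TAIR10.1, chr1:6389149-6389398, plus strand, capitals as above).
MYB51 upstream: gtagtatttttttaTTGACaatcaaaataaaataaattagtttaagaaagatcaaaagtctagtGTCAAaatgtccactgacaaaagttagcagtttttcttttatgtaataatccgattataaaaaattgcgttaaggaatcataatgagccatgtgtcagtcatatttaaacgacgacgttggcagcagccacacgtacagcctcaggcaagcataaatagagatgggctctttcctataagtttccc
TTGAC lay at 2 places, 236 and 186 bases before the start. The windows of MYB34 and MYB122 held none of the 3 motifs.

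MYB122, the minor indole regulator, was listed at 0.0451, 0.0457 and 0.182 FPKM in WT mock and at 0, 0.0408 and 0.129 FPKM in WT Pst hrcC-. In linc1-1 it was listed at 0.231, 0.313 and 0.0903 FPKM after mock treatment and at 0.10, 0.204 and 0.0706 FPKM after Pst hrcC-. The groups overlapped in every comparison. Its fitted genotype difference was 0.12 on the log2 scale (fit without a minimum, limma adjusted p = 0.323), and at these levels the tables do not resolve its changes.

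**Figure D2:**
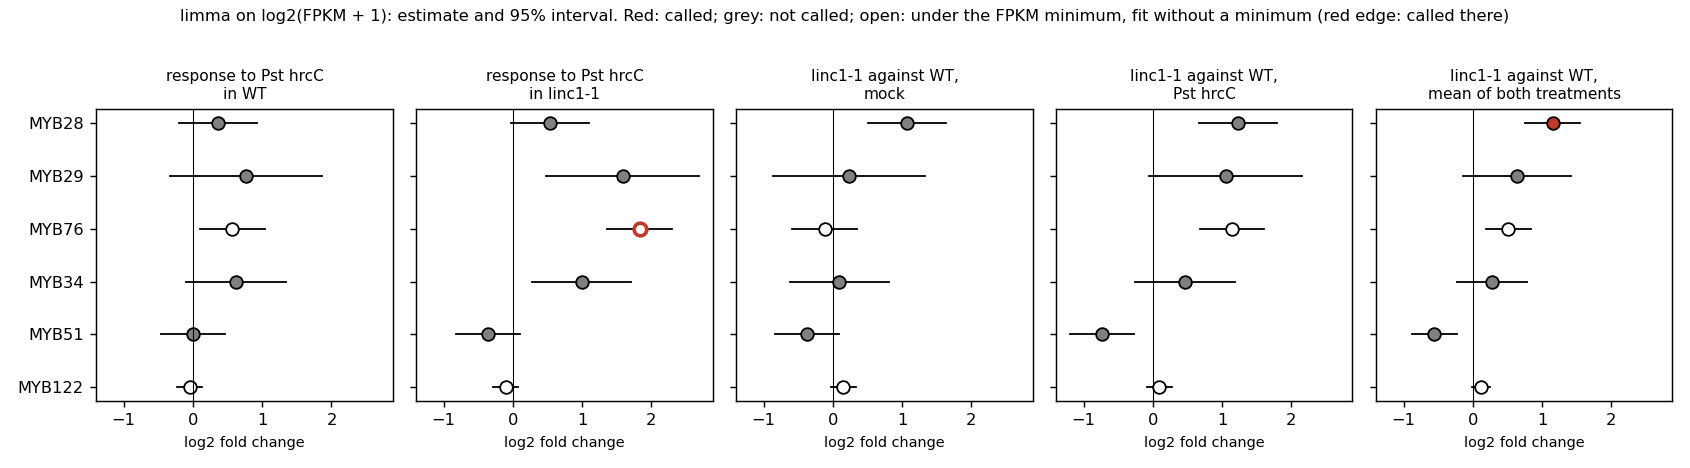
Log2 fold changes (horizontal axis, log2(FPKM + 1) scale) of the 6 regulators in 5 comparisons, with 95% intervals from limma. Red marks MYB28 at 1.15 in the mean of both treatments, grey marks values that were not called, and open symbols are MYB76 and MYB122 in the fit without a minimum, where the red edge marks MYB76 at 1.83.

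In the response of linc1-1, 3 of the 4 tested members (MYB28, MYB29 and MYB34) and MYB76 were higher without overlap of the groups, beside 7.45% of all tested genes, and 0 of 6 were lower (4.16%). In the response of WT, 0 of 6 members were higher (2.9%) and 0 lower (5.14%) without overlap. That count rests on the WT replicate 1 libraries, since MYB28, MYB29, MYB76 and MYB34 were higher without overlap in the other WT replicates. Of linc1-1 against WT in mock, MYB28 alone was higher (7.08%) and none lower (8.84%). After Pst hrcC-, MYB28 and MYB76 were higher (14.9%) and MYB51 was lower (6.19%). With both treatments joined, 6 libraries against 6, the genotypes overlapped for every member, beside 1.82% of genes that were higher and 1.15% that were lower without overlap. The response fits called 0 of the 4 tested members in WT and 0 in linc1-1, where 0.18% and 0.606% of all genes were called, all of them higher.

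With the same fold minimum and limma's p taken before adjustment, 0 of the 4 tested members passed in the response of WT, beside 2.16% of all genes that were higher and 1.1% that were lower. In the response of linc1-1, MYB29 and MYB34 passed as higher (2.79% of genes) and none as lower (0.372%). MYB28 passed as higher in linc1-1 against WT in mock (1.8% of genes, and 0.018% called) and none as lower (2.81%, and 0.018% called). After Pst hrcC-, MYB28 passed as higher (6.61%, and 0.174% called) and MYB51 as lower (3.92%, and 0.258% called). Over both treatments MYB28 passed as higher (4.13%) and none as lower (3.93%, and 1.25% called). In the difference between the responses 0% of genes were called, and before adjustment 1.38% were higher and 0.612% lower, with none of the 4 tested members among them.

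The share of aliphatic regulators in the summed level of the 6 genes separated the genotypes. It was 31.2% to 41.5% in WT mock and 29.2% to 45.8% in WT Pst hrcC-, against 52.6% to 62.0% in linc1-1 mock and 55.5% to 63.8% in linc1-1 Pst hrcC-. All 6 linc1-1 libraries were above all 6 WT libraries, and since the share is taken within a library, a scaling of whole libraries cannot move it. The share restates the levels given above, mainly that of MYB28, and how often other gene sets separate the genotypes was not counted. The group means were 36.8% ± 5.2, 39.5% ± 8.97, 56.5% ± 4.91 and 58.4% ± 4.70 (SD, n = 3), so that treatment moved the share by less than the spread between replicates in both genotypes.

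In linc1-1 both sums were higher after Pst hrcC- than after mock treatment without overlap, and in WT both overlapped. In linc1-1 the aliphatic sum went from 18.6 ± 3.46 FPKM in mock to 33.8 ± 5.2 after Pst hrcC-, and the indole sum from 14.3 ± 2.38 to 23.9 ± 3.69 FPKM. In WT the aliphatic sum was 9.10 ± 3.55 and 13.8 ± 5.91 FPKM, and the indole sum 15.2 ± 3.08 and 21.0 ± 6.40 FPKM. Without the WT replicate 1 libraries the aliphatic sums did not overlap (6.55 and 7.60 against 10.5 and 10.3 FPKM), while the indole sums still did. MYB28 made up 72.0% to 99.3% of the aliphatic sum, so the aliphatic values are mainly those of MYB28.

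**Figure D3:**
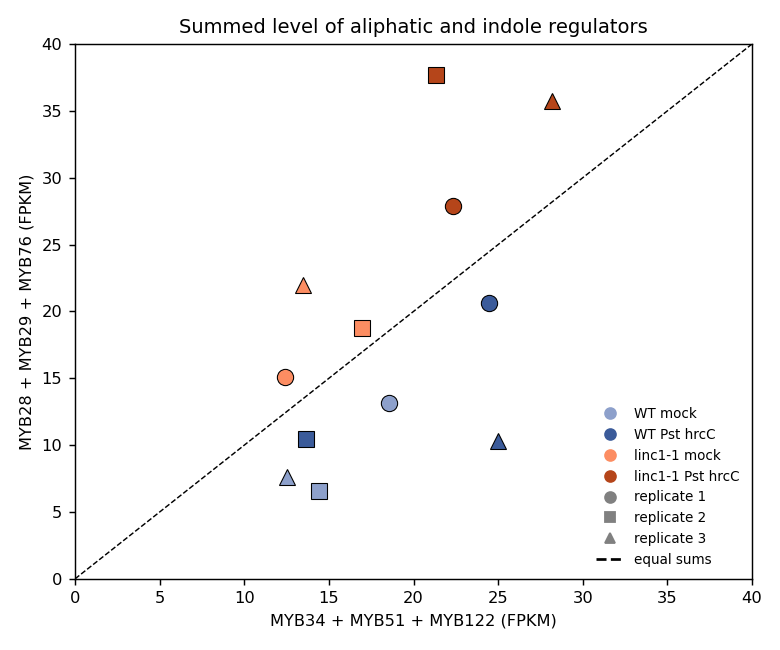
Summed level of MYB28, MYB29 and MYB76 (vertical axis, FPKM) against that of MYB34, MYB51 and MYB122 (horizontal axis, FPKM) in the 12 libraries. Colours are the 4 groups, shapes the replicates, and the dashed line marks equal sums. All linc1-1 libraries lie above the line (52.6% to 63.8% aliphatic) and all WT libraries below it (29.2% to 45.8%).

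The ratios of MYB28 to MYB51 and to MYB34 within a library need no common scale and separated the genotypes within each treatment. They restate the levels given above, with MYB28 the gene found higher in linc1-1 and MYB51 the gene found lower. How often other gene pairs separate the genotypes in this way was not counted. With the treatments joined, both ratios overlapped between genotypes. MYB28 over MYB51 was 1.15 to 2.43 in WT mock, 1.17 to 3.35 in WT Pst hrcC-, 3.09 to 6.70 in linc1-1 mock and 6.89 to 12.7 in linc1-1 Pst hrcC-. Within each treatment the WT and linc1-1 values differed without overlap in mock and after Pst hrcC-. MYB28 over MYB34 was 0.709 to 1.12 and 0.471 to 0.881 in WT mock and Pst hrcC-, and 1.40 to 1.98 and 1.02 to 1.52 in linc1-1, again without overlap within a treatment. The makeup of the indole branch was also compared. MYB34 over MYB51 was 1.04 to 3.42 in WT mock, 2.19 to 4.25 in WT Pst hrcC-, 1.63 to 3.38 in linc1-1 mock and 5.78 to 9.27 in linc1-1 Pst hrcC-. Only the last group stood apart, with MYB34 at 84.9% to 90.0% of the indole sum.

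The enzyme genes of the branches were described from lists of 24 aliphatic and 13 indole genes. Of the aliphatic list 22 were tested, AOP3 was listed at or near 0 and AOP2 was not analysed here. In the response of linc1-1, 6 of 22 aliphatic genes were called higher, beside 0.606% of all genes. Positive values were found for 22 of 22, with a median of 1.80 against 0.02 over all tested genes (log2). The called genes with the largest values were CYP79F1, which starts core GS synthesis from methionine derivatives (3.92, limma adjusted p = 0.0196), the aminotransferase gene BCAT4 (3.03, limma adjusted p = 0.0224), the glutathione transferase gene GSTF11 (2.72, limma adjusted p = 0.00223) and MAM1 of chain elongation (2.18, limma adjusted p = 0.0474). CYP79F1 had 0.372, 0.665 and 0.882 FPKM in linc1-1 mock and 17.0, 25.3 and 30.4 FPKM in linc1-1 Pst hrcC-. In WT it had 9.86, 0.461 and 0.377 FPKM after mock treatment and 11, 6.55 and 7.69 FPKM after Pst hrcC-. Replicate 1 of WT mock was thus already at the level of the treated WT libraries, as it was high for MYB29. CYP79F1 and its neighbour CYP79F2 are closely related tandem copies, and how reads were divided between them is uncertain.

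In WT, limma called 0 of 22 aliphatic genes in the response, beside 0.18% of all genes. Before adjustment 8 were higher at the same fold minimum, beside 2.16% of all genes. Of the list 19 had positive values, beside 5674 of 16677 genes, and the median was 0.75 against -0.09 over all genes. CYP83A1, the next enzyme of the branch, had a response of 2.46 in linc1-1 (limma adjusted p = 0.225) and 1.54 in WT (limma adjusted p = 0.927), and CYP79F2 had 1.27 and 0.62 (limma adjusted p = 1 and 0.993). Against WT, 1 of 22 aliphatic genes was called in linc1-1 after Pst hrcC-, GSTF11 at 2.25 (limma adjusted p = 0.0123), beside 0.174% of all genes called higher. Before adjustment 11 of 22 were higher there, beside 6.61% of all genes, and the list median was 1.2 against 0.14. In mock none was called, and before adjustment 1 gene was lower and 0 higher, beside 2.81% and 1.8% of all genes. The list median there was 0.24 against 0.01 over all genes. That median rests on WT replicate 1. Leaving out both WT replicate 1 libraries was an alternative added after the data were seen. The list median was then 0.71 in mock and 1.53 after Pst hrcC-, against 0.04 and 0.13 over all genes. Positive values were found for 18 of 22 in mock and 22 of 22 after Pst hrcC-, beside 9059 and 10210 of 16677 genes. The MYB28 differences without these libraries were 1.24 and 1.52.

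Of the 13 indole genes, all tested, CYP79B3 alone was called in the response of linc1-1 (1.65, limma adjusted p = 0.0174), beside 0.606% of all genes. None was called in the response of WT, where CYP79B3 was at 1.46 (limma adjusted p = 0.0626). Before adjustment 8 were higher in WT at the same fold minimum, beside 2.16% of all genes. CYP79B3 and CYP79B2 convert tryptophan to its aldoxime, and CYP83B1 acts next. CYP79B2 had responses of 1.84 in linc1-1 and 1.13 in WT, and CYP83B1 of 1.22 and 1.25 (limma adjusted p = 0.208 to 0.925). The list medians were 0.96 in linc1-1 and 0.79 in WT. Before adjustment 1 indole gene was higher in linc1-1 than in WT in mock, beside 1.8% of all genes. After Pst hrcC- 3 were higher and 1 lower, beside 6.61% and 3.92% of all genes. Between genotypes no indole gene was called in mock or after Pst hrcC-, with medians of -0.05 and 0.11 against 0.01 and 0.14 over all genes. Without both WT replicate 1 libraries these medians were 0.18 and 0.28, so the sign in mock also rests on those libraries.

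A list of 11 genes held the bHLH partners of the MYB factors and other regulators related to GS, jasmonate or sulfur. Of these 8 were tested and limma called none in any comparison. Before adjustment MYC2 alone passed, in both responses (2.16% of all genes higher in WT and 2.79% in linc1-1). MYC2, the jasmonate-responsive bHLH partner, had 9.56, 33.5 and 24.0 FPKM in WT mock and 38.9, 99.8 and 113 FPKM in WT Pst hrcC-. In linc1-1 it had 13.6, 17.0 and 9.0 FPKM after mock treatment and 63.1, 63.2 and 107 FPKM after Pst hrcC-. Its treated and mock groups did not overlap in either genotype, and its response was 1.88 in WT (limma adjusted p = 0.34) and 2.46 in linc1-1 (limma adjusted p = 0.061). After Pst hrcC- the genotypes differed in MYC2 by -0.01, and MYC3 and MYC4 had genotype values of -0.25 and 0.02 there.

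The members also moved with each other across the 12 libraries, given here as a description since the libraries share groups and the WT replicate 1 pair. MYB29 and MYB34, regulators of different branches, had a Pearson r of 0.85 on the log2 scale, MYB28 and MYB29 0.76, and MYB28 and MYB51 -0.88. After the group means were removed, MYB28 and MYB29 stood at 0.90 and MYB28 and MYB51 at -0.64, while MYB29 and its neighbour MYB76 went from 0.71 to -0.09. Median r with the aliphatic enzymes was 0.90 for MYB29, 0.81 for MYB34, 0.72 for MYB28 and MYB76, -0.65 for MYB51 and -0.24 for MYB122. With the indole enzymes it was 0.73 for MYB34, 0.63 for MYB29, 0.57 for MYB76, 0.36 for MYB28, -0.22 for MYB51 and -0.27 for MYB122. With the group means removed, the median r with the aliphatic enzymes was 0.87 for MYB29, 0.84 for MYB28, 0.71 for MYB34, -0.19 for MYB76, -0.53 for MYB51 and -0.36 for MYB122, so the high value of MYB76 and the order of MYB34 and MYB28 rest on differences between groups. MYB76 went to -0.43 with the indole enzymes. MYB28 had a median r of 0.58 with the 20 photosynthesis genes (0.73 with group means removed), above its 0.36 with the indole enzymes (0.56 with group means removed). The median r over all tested genes lay between -0.16 and 0.15 for the 6 members.

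**Figure D4:**
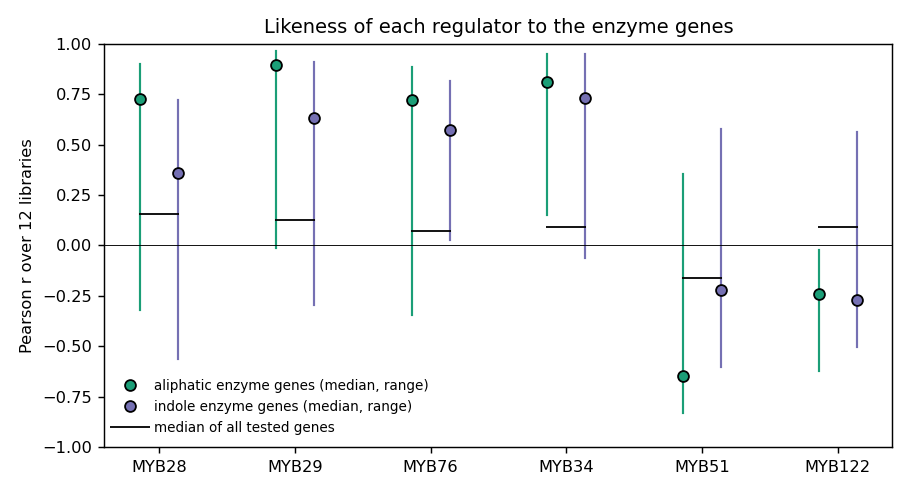
Pearson r (vertical axis) over the 12 libraries between each regulator and the 22 aliphatic (green) and 13 indole (violet) enzyme genes tested, as median and range, with the median over all tested genes as a black bar. In these values, which include the differences between groups, MYB29 (0.90) and MYB34 (0.81) have the highest medians with the aliphatic enzymes and MYB51 (-0.65) the lowest; with group means removed MYB28 (0.84) is above MYB34 (0.71) and MYB76 is at -0.19.

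The genes most like each member were sought among 8777 genes whose mean reached 5 FPKM, by Pearson r over the 12 libraries. MYB29 was followed by IPMI1 (0.968), TLL1 (0.965) and IPMI2 (0.961), of which the IPMI genes encode isopropylmalate isomerase subunits of methionine chain elongation. MYB34 was followed by SERAT2;2, a serine acetyltransferase gene of cysteine synthesis (0.964), and by the indole GS genes CYP79B2 and SOT16 (both 0.949). MYB28 was followed by the asparagine synthetase gene ASN2 (0.944), HYR1 (0.941) and AT2G30766 (0.939), none of which is on either enzyme list. MYB51 was followed by PRA8 (0.921), AT1G21920 (0.916) and AT1G68440 (0.911).

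Other gene lists moved with these values. The touch-responsive genes on the list (3 of 3 tested) summed to 552 to 605 FPKM in WT mock, 232 to 632 in WT Pst hrcC-, 78.3 to 226 in linc1-1 mock and 75.5 to 79.3 in linc1-1 Pst hrcC-, with none at 0. The linc1-1 sums were all below the WT sums, TCH3 and TCH4 were called lower in linc1-1 after Pst hrcC- (limma adjusted p = 0.044 and 0.045), and the median r with these genes was -0.94 for MYB28 and 0.83 for MYB51. Their part in the MYB28 and MYB51 differences was not tested. In WT replicate 1 against replicates 2 and 3, MYB28 was 0.52 higher in mock and 0.84 after Pst hrcC-, MYB29 1.71 and 1.46, MYB34 0.86 and 0.58, and MYB51 was at -0.40 and -0.21 on the log2 scale. The medians of the 20 photosynthesis genes (1.12 and 1.26), the aliphatic enzymes (1.51 and 1.16) and the indole enzymes (0.55 and 0.72) were higher in those libraries too. The median of the clock genes stood at 0.25 and -1.70, but it joins genes that moved in opposite directions. In replicates 1, 2 and 3 of WT Pst hrcC-, the clock gene CCA1 had 18.6, 0.827 and 0.411 FPKM. The clock gene TOC1 had 5.74, 84.0 and 75.0 FPKM there. The photosynthesis sums overlapped among all 4 groups, at 41145 to 75367 FPKM in WT mock, 32568 to 71393 in WT Pst hrcC-, 45315 to 68608 in linc1-1 mock and 44386 to 73513 in linc1-1 Pst hrcC-. The root genes, of which 6 of 10 were tested, summed to 167 to 235, 158 to 267, 89.8 to 165 and 204 to 257 FPKM in the same order. What set WT replicate 1 apart was not tested.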

How the data were processed

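Whole-seedling mRNA libraries of 4 groups (3 libraries each) were used, 6 regulators of 27371 genes. Per the labels, the authors aligned paired-end reads to TAIR10 with TopHat2 2.1.1 and quantified them with Cufflinks 2.2.1 after FastQC; the paper's methods name other versions of both. The deposited values are FPKM, in a table per genotype with no counts. Low values of 6325 genes, 285 to 704 per library, were compared with whole multiples of a smallest step. Within 0.15 of one lay 29.1% to 39.4% of them, with 30% by chance. The highest shares were 39.4% and 37.9%, in WT mock replicates 1 and 2. Most low values were thus not near such multiples, so reads were not recovered and the number of reads behind a value is unknown. Column sums ran from 904687 to 7037666.

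The values were fitted as log2(FPKM + 1) with limma 3.58.1 (R 4.3.3), mean-variance trend, 4 groups in 1 fit, for genes whose mean reached 1 FPKM, using Benjamini-Hochberg adjustment per comparison. The fit was run on simulated libraries that were independent and had the same spread in all groups. That setting lacks the shared deviation of the WT replicate 1 libraries, so it does not show how the fit behaves with them. Called genes had an adjusted p below 0.05 and changed by more than 1.5 times. Exact permutation tests (two-sided) permuted labels within the other factor, 400 arrangements. With 3 against 3 the smallest exact p is 0.1. Alternatives were another pseudocount, other minimums, 3 scalings, a replicate block, fits of the compared groups, array weights and leaving out libraries. All 6 members were named, with LINC1, CYP79F1, CYP79F2, CYP83A1, CYP79B2, CYP79B3, CYP83B1, MYC2, MYC3, MYC4, up to 4 called genes per list and comparison by size, and the 3 genes most like each member of at least 1 FPKM. LHCB1.3, AOP3, CCA1 and TOC1 were named after their values were seen. Members, lists, tests and alternatives were chosen with earlier results of these data known. Sequences and positions come from RefSeq TAIR10.1.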

Additional observations from a re-analysis of the deposited data

How the results depend on the processing

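MYB28 over both treatments kept its direction and its call in all 21 alternatives (1.08 to 1.38, limma adjusted p = 0.000149 to 0.0453). Over the 6 members and 6 comparisons, 712 of 744 alternative values kept direction and side of the threshold, 19 newly passed it, 1 no longer did and 12 changed sign. The number of members called was 0 in the response of linc1-1, and 1 without a minimum (MYB76), with the compared groups only, with array weights and without both WT replicate 1 libraries (MYB29 each). In mock it was 0, and 1 (MYB28) with array weights and without both WT replicate 1 libraries. After Pst hrcC- it was 0, 3 with those 2 settings (MYB28, MYB29 and MYB51), and 0 to 1 without single libraries, the 1 being MYB28 without either WT replicate 1 library. Over both treatments it was 1, 2 with array weights, 3 without both WT replicate 1 libraries, and 1 to 2 without single libraries (2 without either WT replicate 1 library). MYB76 in the response of linc1-1 missed the threshold in the fit of the compared groups (adjusted p = 0.0558). The sign changes were all of small, uncalled values: MYB51 in the WT response (0.00) at 0.078 with size factors, 0.075 with quantile normalization and -0.19 to 0.12 without single libraries, MYB122 there (-0.094 to 0.014), MYB29 in mock (-0.12 to 0.81), MYB34 in mock (-0.15 to 0.38), and the differences between responses of MYB28 (-0.0039 to 0.45) and MYB122 (-0.13 to 0.0011). Over all genes, the 6 calls in mock became 3 to 1865, the 72 after Pst hrcC- 3 to 2950, the 349 over both treatments 104 to 3205, the 101 in the response of linc1-1 37 to 288, the 30 in that of WT 6 to 50, and the 0 in the difference between the responses 0 to 2. Replicate numbers did not pair the samples as a whole (4 of 18 same-numbered pairs correlated above 0.1, range -0.21 to 0.45). The highest value, 0.45, was that of WT mock replicate 1 with WT Pst hrcC- replicate 1. The main fit and the permutation tests took these libraries as independent. The replicate block changed no count of members called (1 over both treatments, 0 elsewhere). It moved the count over all genes from 72 to 29 after Pst hrcC- and from 6 to 3 in mock. The unknown depth and the FPKM scale limit MYB76 and MYB122 most.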
